A study of Mus musculus with 10 samples.

Results

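Broad embryonic open domains are stretches of the thymic epithelial genome where merged E15 and E17 peaks of open chromatin spanned 1500 bp or more. They were found by merging the 4 embryonic peak lists wherever peaks overlapped or touched. Merged regions at least 1500 bp wide that all 4 lists called were kept. A single list did not have to cover the full width. The rule kept 1026 domains out of 65719 embryonic regions called in all 4 lists, and 9 further regions were wide enough but were called in fewer lists. The peaks came from ATAC-seq, in which a transposase cuts accessible DNA, on thymic epithelial cells (TEC) sorted from wild type C57BL/6 mice. The 5 groups had 2 libraries each and were embryonic day 15 (E15), embryonic day 17 (E17), and 3 fractions of age day 6 labelled mTEC4, mTEC1 and mTEC2. All groups share the genotype and strain. The fraction names are not explained in the labels, and none is given for the embryonic cells. The day 6 libraries differ from the embryonic ones in age and possibly in the cells sorted, and these cannot be told apart. Nothing states that replicates came from separate animals, so a p-value measures only the spread between these libraries.

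Open chromatin marks DNA that is free of a nucleosome and can be reached by transcription factors. At most active promoters the opening is a short gap just before the gene start, and wide openings are known from CpG-rich promoters, from strongly transcribed genes and from genes that define a cell type. In the thymus, TEC provide the Notch ligands, chemokines and self-antigens that developing T cells need, and the forkhead factor Foxn1 is required for their development.

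The promoters of 8 genes in domains are printed to show the kinds of sequence that the domains cover. Each runs from 250 bases before to 50 bases after a gene start, 5′ to 3′ on the strand of the gene, as listed by RefSeq on GRCm38.p6 (mm10), and capitals mark CG dinucleotides. Basp1 (chr15:25413715-25414014, minus strand), Hspa1b (chr17:34959189-34959488, minus) and Phf21a (chr2:92185233-92185532, plus) lie in 3 of the widest domains. Twist1 (chr12:33957421-33957720, plus) lies in a domain with no day 6 peak. Epcam (chr17:87635729-87636028, plus), Dll4 (chr2:119325534-119325833, plus) and Ovol2 (chr2:144331313-144331612, minus) are epithelial or TEC genes, and Chd4 (chr6:125095731-125096030, plus) is a chromatin regulator.
Basp1: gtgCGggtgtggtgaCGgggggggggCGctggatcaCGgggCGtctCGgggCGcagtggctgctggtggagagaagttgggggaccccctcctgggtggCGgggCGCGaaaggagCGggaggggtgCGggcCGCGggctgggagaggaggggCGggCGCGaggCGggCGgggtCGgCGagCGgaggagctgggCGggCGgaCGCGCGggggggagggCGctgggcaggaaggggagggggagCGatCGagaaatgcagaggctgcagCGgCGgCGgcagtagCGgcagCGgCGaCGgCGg
Hspa1b: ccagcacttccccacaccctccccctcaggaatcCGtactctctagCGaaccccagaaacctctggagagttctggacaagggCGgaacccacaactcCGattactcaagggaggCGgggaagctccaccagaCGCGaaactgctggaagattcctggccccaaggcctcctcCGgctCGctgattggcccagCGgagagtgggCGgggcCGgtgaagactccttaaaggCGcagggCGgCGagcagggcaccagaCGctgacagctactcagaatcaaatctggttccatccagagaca
Phf21a: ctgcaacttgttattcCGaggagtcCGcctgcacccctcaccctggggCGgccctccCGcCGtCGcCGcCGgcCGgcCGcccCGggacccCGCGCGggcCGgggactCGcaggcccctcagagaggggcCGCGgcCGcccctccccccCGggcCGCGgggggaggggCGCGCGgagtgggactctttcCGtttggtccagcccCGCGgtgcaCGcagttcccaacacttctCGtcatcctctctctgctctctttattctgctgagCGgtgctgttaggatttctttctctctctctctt
Twist1: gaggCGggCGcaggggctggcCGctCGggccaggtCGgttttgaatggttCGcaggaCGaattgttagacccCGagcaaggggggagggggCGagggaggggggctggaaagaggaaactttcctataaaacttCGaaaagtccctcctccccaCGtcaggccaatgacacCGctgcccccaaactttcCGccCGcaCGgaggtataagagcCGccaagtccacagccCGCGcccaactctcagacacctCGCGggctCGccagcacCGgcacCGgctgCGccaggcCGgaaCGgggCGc
Epcam: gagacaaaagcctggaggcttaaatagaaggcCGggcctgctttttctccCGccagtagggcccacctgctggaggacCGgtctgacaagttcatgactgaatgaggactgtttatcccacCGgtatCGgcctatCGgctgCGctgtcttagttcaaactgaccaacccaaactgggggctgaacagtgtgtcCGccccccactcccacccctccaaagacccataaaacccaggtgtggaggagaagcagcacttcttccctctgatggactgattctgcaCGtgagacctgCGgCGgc
Dll4: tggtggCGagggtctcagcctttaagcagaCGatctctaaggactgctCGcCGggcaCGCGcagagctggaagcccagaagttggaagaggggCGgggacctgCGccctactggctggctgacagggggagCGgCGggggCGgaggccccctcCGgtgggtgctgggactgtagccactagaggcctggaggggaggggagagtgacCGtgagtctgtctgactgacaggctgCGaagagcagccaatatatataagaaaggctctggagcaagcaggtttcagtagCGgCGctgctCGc
Ovol2: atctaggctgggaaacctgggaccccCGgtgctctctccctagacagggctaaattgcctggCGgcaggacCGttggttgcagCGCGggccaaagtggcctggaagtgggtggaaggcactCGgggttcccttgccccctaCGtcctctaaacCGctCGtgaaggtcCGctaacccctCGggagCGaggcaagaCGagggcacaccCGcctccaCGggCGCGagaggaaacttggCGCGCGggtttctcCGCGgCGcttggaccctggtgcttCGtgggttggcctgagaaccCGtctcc
Chd4: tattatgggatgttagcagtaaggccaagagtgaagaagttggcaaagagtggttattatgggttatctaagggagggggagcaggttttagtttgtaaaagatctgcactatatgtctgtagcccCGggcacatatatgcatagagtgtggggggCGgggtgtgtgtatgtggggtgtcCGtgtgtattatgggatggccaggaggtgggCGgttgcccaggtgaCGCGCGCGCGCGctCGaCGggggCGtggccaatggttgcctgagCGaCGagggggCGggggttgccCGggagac
The number of CG dinucleotides in these windows was 38 at Basp1, 31 at Phf21a, 27 at Twist1 and 25 at Ovol2. It was 17 at Dll4 and at Chd4, 16 at Hspa1b and 11 at Epcam. The Epcam window was thus the poorest in CG of the 8, with 57% G and C, against 78.0% at Basp1.

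The domains covered 1791953 bp in all. Their widths ran from 1500 to 5776 bp with a median of 1668 bp, against a median of 437 bp over all embryonic regions, and 128 domains reached 2000 bp and 4 reached 3000 bp. In 298 domains (29.0%) no embryonic list held a single peak of 1500 bp, so their width came from overlapping peaks of several lists. In 483 (47.1%) only 1 list held such a peak, and in 38 (3.70%) all 4 did. Such single wide peaks lay in 122 and 143 domains of the E15 libraries and in 275 and 564 of the E17 libraries. The second E17 library, whose list was also the longest, therefore set much of the width: without it the rule kept 565 domains. These widths chose the members and are given as a description.

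Almost all domains kept some open chromatin at day 6, but in a much narrower form. At least 1 of the 6 day 6 lists called 997 domains (97.2%), where a call means any overlap of 1 bp or more, and the same was true of 77.1% of all embryonic regions. All 6 lists called 580 domains (56.5%), against 14.8% of all embryonic regions. This share depends on the peak threshold and on how width is reached: it was 12% of 558 domains with peaks of −log10 q of at least 5 only, and 92.1% of 38 domains with a single peak of 1500 bp in every embryonic list. No day 6 list called 29 domains (2.83%, against 22.9%). A wide region offers more places for a peak to touch, so the calls were also read by how much of a domain a list covered. A day 6 list covered 50% of the width or more, in at least 1 list, in 211 domains (20.6%, against 37.0% of all embryonic regions), and all 6 lists did so in 10 domains (0.975%, against 1.60%). A peak lay over the central 200 bp in all 6 lists in 184 domains (17.9%, against 9.65%). Among regions at gene starts that share was lower in domains than in the next narrower classes. It was 20.5% of domains, 27.7% of regions of 1000 to 1499 bp and 34.6% of those of 500 to 999 bp. The central window is a larger part of a narrow region than of a domain, so these shares are not alike across widths. In regions under 250 bp all 6 lists called 3.10% both by the centre and by any overlap. By the count of lists, 42 domains were called in 1 day 6 list, 87 in 2, 66 in 3, 95 in 4 and 127 in 5.

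The same contrast stood in every library. The longest peak in a domain had a median length of 920 and 933 bp in the E15 libraries and of 1183 and 1522 bp in the E17 libraries. At day 6 that median was 274 and 365 bp in mTEC4, 325 and 355 bp in mTEC1 and 388 and 238 bp in mTEC2, so the 4 embryonic and 6 day 6 libraries did not overlap. The embryonic values follow from the choice of the members, and no test is given. Day 6 lists held few wide peaks anywhere. Over whole lists, peaks of 1500 bp or more numbered 122 and 143 in E15 and 275 and 569 in E17, against 5 to 21 at day 6. Peaks covered 63.9% and 64.7% of domain sequence in E15, 72.4% and 87.4% in E17, and between 14.8% and 28.6% in the day 6 libraries. In E15 domains were covered less than all embryonic regions, with 63.9% against 67.3% and 64.7% against 66.6%. In E17 they were covered more, with 72.4% against 66.5% and 87.4% against 86.8%. At day 6, library by library, domains were covered more than all embryonic regions, except in the first mTEC2 library (28.6% against 28.8%). The pairs were 15.1% against 9.47% and 24.1% against 16.4% in mTEC4, and 20.1% against 12.8% and 24.2% against 21.7% in mTEC1. In the second mTEC2 library they were 14.8% against 12.6%. Domains thus stood above other embryonic regions in how often a day 6 peak touched them, and much less in how much of their sequence it covered.

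**Figure D1:**
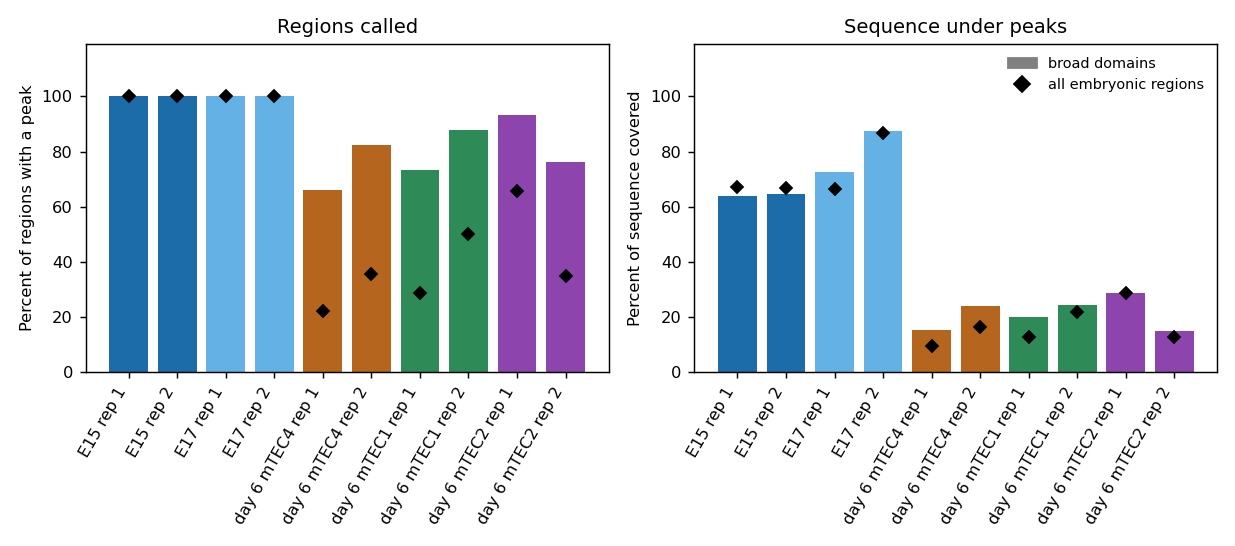
Percent of the 1026 domains with a peak (left) and percent of their sequence under peaks (right) in each of the 10 libraries; bars are the domains, coloured by group, and diamonds are all 65719 embryonic regions. Day 6 bars lie between 65.9% and 93.3% on the left and between 14.8% and 28.6% on the right.

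With 2 libraries per fraction, no difference between the day 6 fractions could be shown. The mTEC4 libraries called 65.9% and 82.2% of the domains, the mTEC1 libraries 73.2% and 87.8%, and the mTEC2 libraries 93.3% and 76.1%. The 2 libraries of a fraction differed as much as the fractions did. The mean was 74.0% ± 11.5 in mTEC4 (SD, n = 2), 80.5% ± 10.3 in mTEC1 (SD, n = 2) and 84.7% ± 12.1 in mTEC2 (SD, n = 2). Each fraction was set against the other 4 day 6 libraries by an exact two-sided permutation test over the 15 ways to choose 2 of 6 libraries. This exact permutation test cannot go below p = 0.0667. It could thus not reach 0.05 whatever the values, and it does not show that the fractions are alike. The difference was -8.58 percentage points for mTEC4 (exact permutation p = 0.333), 1.15 for mTEC1 (exact permutation p = 0.867) and 7.43 for mTEC2 (exact permutation p = 0.533). Covered sequence averaged 19.6% ± 6.38 in mTEC4, 22.2% ± 2.88 in mTEC1 and 21.7% ± 9.82 in mTEC2 (SD, n = 2 each). For covered sequence the exact permutation p was 0.667, 0.8 and 1 in the same order, and all 6 p-values were 1 after Benjamini-Hochberg adjustment. The second mTEC2 list was the shortest of all, with 40858 peaks against 101917 in the first. With every list shortened to the length of that list, 416 domains were kept. The differences in domains called were then -5.41 for mTEC4, 1.62 for mTEC1 and 3.79 for mTEC2, and that in covered sequence for mTEC2 was -0.274 (exact permutation p = 0.2 or more, adjusted p = 0.933). Read depth is unknown.

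Fraction by fraction, both libraries called 657 domains (64.0%) in mTEC4, 731 (71.2%) in mTEC1 and 770 (75%) in mTEC2. Over all embryonic regions both libraries called 19.7% in mTEC4, 25.4% in mTEC1 and 31.5% in mTEC2, the same order. Neither library called 164 domains in mTEC4, 105 in mTEC1 and 58 in mTEC2. Domains called in both libraries of a single fraction and in no other day 6 list were rare. There were 11 in mTEC2 (1.07%, against 2.65% of all embryonic regions), 3 in mTEC4 (0.292%, against 0.166%) and 2 in mTEC1 (0.195%, against 0.280%). These shares lay near or under the background.

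Among the fraction-limited domains, Ovol2, a zinc finger repressor that keeps cells epithelial, was 1 of the 3 in mTEC4. The Ovol2 domain (chr2:144330734-144332242) was 99.2% and 31.5% covered in the E15 libraries and 31.5% and 97.1% in the E17 libraries. Both mTEC4 libraries kept a peak there, over 15.7% and 16.2% of the width, and the other 4 day 6 libraries had none. The mTEC4 peaks had −log10 q of 1.26 and 1.68, near the lowest value in any list, 1.0002. The other mTEC4 domains lay in Ank3, which encodes a membrane anchor of the spectrin skeleton, and at the start of Sowaha. At Ank3 (chr10:69923916-69925822) the peaks covered 11.9% and 8.91%, and at Sowaha (chr11:53478606-53480263) 18.0% and 22.4%. The widest mTEC2 domains lay in Ptprr, which encodes a tyrosine phosphatase, and next to Slc9a2, which encodes a sodium-proton exchanger. Their peaks covered 24.0% and 10.4% at Ptprr (chr10:116196415-116198204) and 12.5% and 5.45% at Slc9a2 (chr1:40658093-40659853). The next were Tspan5 (chr3:138836207-138837945), which encodes a tetraspanin, and Gm40149 (chr3:129150142-129151833), with 10.3% and 5.12% and with 4.79% and 4.26% covered.

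Most domains lay at gene starts. A gene start lay within 1 kb of 831 domains (81.0%), against 25.3% of all embryonic regions; the start was listed by RefSeq for 690 of them, and for 141 it was either end of a gene with no listed start. Another 124 domains (12.1%, against 43.9%) lay inside a gene, and 66 (6.43%, against 30.7%) lay between genes, at 1030 to 188562 bp from the nearest (median 16258 bp). The 5 remaining domains were on scaffolds that carry no gene in the table. Gene-start domains were called in all 6 day 6 lists in 526 cases (63.3%), against 45.2% of all embryonic regions at gene starts. Domains inside genes were so called in 30 cases (24.2%, against 3.75%) and those between genes or far from any in 24 of 71 (33.8%, against 5.46%). No day 6 list called 12 gene-start domains (1.44%, against 8.89%), 10 domains inside genes (8.06%, against 28.6%) and 7 of the 71 others (9.86%, against 26.5%).

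At gene starts the domains lay close to the next narrower class of regions. All 6 day 6 lists called 24.9% of gene-start regions 250 to 499 bp wide, 51.3% of those of 500 to 999 bp, 60.1% of those of 1000 to 1499 bp and 63.3% of the domains. The covered share, as the mean of the 6 libraries, was 25.1%, 28.9%, 25% and 21.8% in the same order. So the share called rose with width while the share covered did not. Away from gene starts all 6 lists called 11.7% of regions of 1000 to 1499 bp and 27.7% of the domains, with 10.4% and 18.6% of their sequence covered. The 195 domains away from gene starts include the 4 that peaks filled almost completely in every library, which are described further on.

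**Figure D2:**
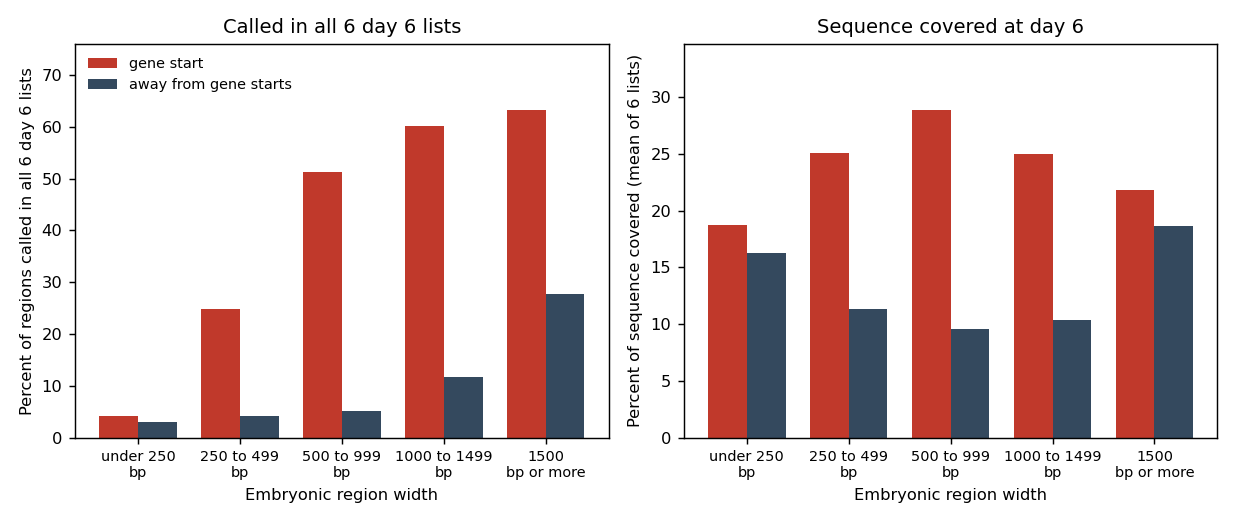
Embryonic regions called in all 4 lists, grouped by width and by whether a gene start lies within 1 kb; the left bars give the percent called in all 6 day 6 lists and the right bars the percent of sequence covered, as the mean of the 6 day 6 libraries. At gene starts the left bars rise from 4.21% to 63.3%, while the right bars are highest at 500 to 999 bp (28.9%).

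Around gene starts the day 6 peaks kept close to the start, and at 500 bp from it they lay more often upstream than downstream, where the embryonic peaks lay more often downstream. Of the domains, 412 held a start with no other listed start within 1 kb, and in these the domain reached a median of 703 bp upstream and 1033 bp downstream of it. The downstream arm was the longer in 270 of them (65.5%), against 63.1% of 7354 narrower regions with 1 start. At the start itself peaks lay over 90.8% and 93.0% of these domains in E15, over 92.5% and 96.4% in E17, and over 41.3% to 68.4% in the day 6 libraries.

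At 500 bp upstream the covered share was 41.5% and 41.0% in E15 and 48.5% and 59.2% in E17, and at 500 bp downstream it was 48.1% and 51.7% in E15 and 55.3% and 76.7% in E17. At this distance all 4 embryonic libraries were higher on the downstream side. At day 6 the upstream and downstream shares were 8.01% and 3.88%, then 12.4% and 10.2%, in the mTEC4 libraries. They were 11.4% and 5.83%, then 15.5% and 9.71%, in mTEC1, and 16.7% and 10.9%, then 10.4% and 4.37%, in mTEC2. All 6 day 6 libraries were thus higher on the upstream side at 500 bp. The contrast also stood in every library at 300 bp and at 800 bp. It did not hold at 100 bp or at 1000 bp. At 1000 bp the embryonic libraries were again higher downstream, but so were 4 of the 6 day 6 libraries, with all day 6 values between 2.18% and 7.77%. At 100 bp every group mean was higher upstream, with 86.8% against 83.3% in E15, 91.5% against 90.0% in E17 and 50.9% against 25.4% in mTEC4. In narrower regions the 2 sides were level at 500 bp at day 6, with group means of 3.04% and 3.04% in mTEC4, 3.62% and 3.54% in mTEC1, and 3.62% and 3.78% in mTEC2. In the embryonic libraries narrower regions also leaned downstream at 500 bp. Their group means were 10.7% upstream and 20.4% downstream in E15, and 14.0% and 27.9% in E17. At 300 bp narrower regions showed the same contrast as domains in every library. Their embryonic shares there were 30.6% to 40.4% upstream and 42.8% to 57.8% downstream. Their day 6 shares were 8.63% to 16.6% upstream and 5.37% to 14.1% downstream, so the contrast was not particular to domains at that distance. What part library depth or the width rule has in this shift was not tested.

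**Figure D3:**
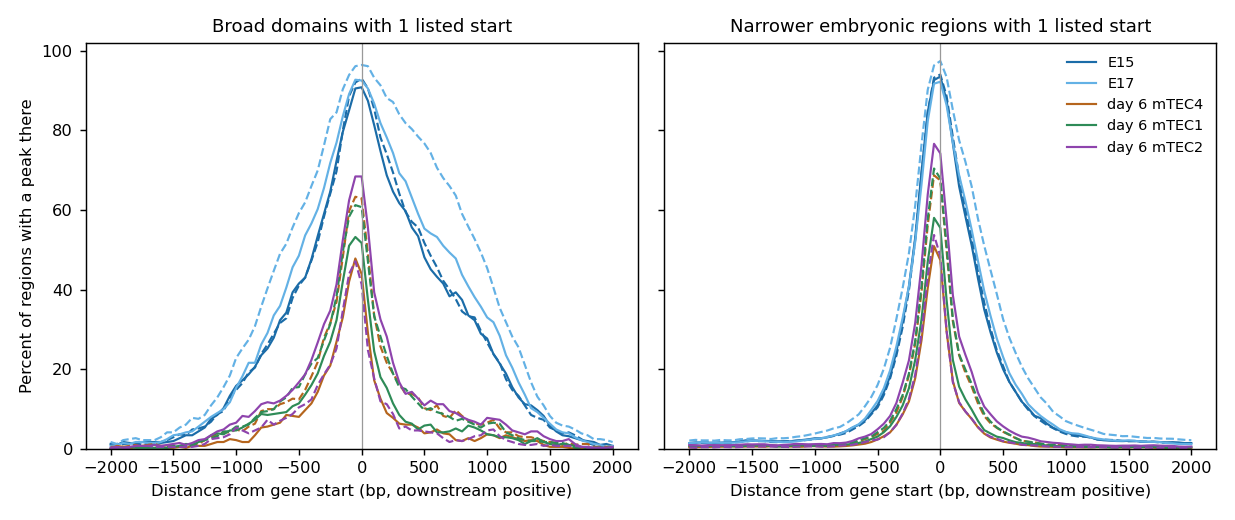
Percent of regions with a peak at each distance from the gene start (bp, downstream positive), for 412 domains with 1 listed start (left) and 7354 narrower embryonic regions with 1 listed start (right); lines are libraries coloured by group, solid for replicate 1 and dashed for replicate 2. On the left the embryonic curves have a long downstream shoulder, and the day 6 curves fall from 41.3% to 68.4% at the start to at most 10.9% at 500 bp downstream. On the right the embryonic curves also lie higher at 500 bp downstream than at 500 bp upstream.

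Promoters in domains were rich in CG dinucleotides. CpG islands are stretches where CG has escaped loss by methylation, and they hold the starts of most widely expressed genes. The 969 listed promoters whose start lay in a domain had a median of 68.3% G and C, against 62.0% for 12963 promoters in other embryonic regions and 47.7% for 18919 promoters in none. The observed to expected ratio of CG, which corrects for base content, had a median of 0.856 in domains, 0.769 in other embryonic regions and 0.209 in none. A ratio of 0.6 or more was reached by 84.8% of promoters in domains, 81.6% of those in regions of 1000 to 1499 bp, and 35.8% of all 32851 promoters. Within the domains the ratio followed the number of day 6 lists. Its median was 0.875 for 671 promoters in domains called in all 6 lists, 0.815 for 228 in domains called in 3 to 5, and 0.678 for 70 in domains called in 0 to 2. The shares at 0.6 or more were 90.0%, 78.1% and 57.1% in that order. Several promoters can share a domain, so these are descriptions.

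**Figure D4:**
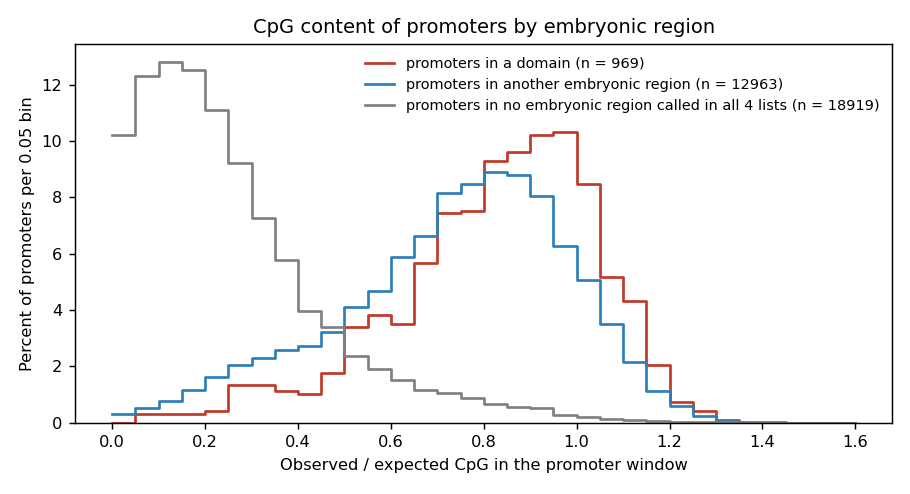
Distribution of the observed to expected CG ratio in 300-base promoter windows, as percent of promoters per bin, for starts in a domain (n = 969), in another embryonic region (n = 12963) and in no embryonic region called in all 4 lists (n = 18919). The medians are 0.856, 0.769 and 0.209.

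Short motifs were counted on both strands of the same windows. The GC box GGGCGG, the letters read by Sp1-family factors, occurred in 75.4% of promoters in domains, 67.2% in other embryonic regions and 35.7% of all promoters. The CCAAT box (CCAAT) occurred in 28.8%, 38.1% and 37.4%, and the TATA box (TATAAA) in 5.37%, 5.96% and 13.6%. The ETS motif CCGGAAGT occurred in 4.02%, 8.18% and 3.89%, the E-box CACGTG in 9.29%, 10.5% and 7.15%, and the AP-1 motif TGANTCA in 3.10%, 4.32% and 7.81%. In promoters of regions of 1000 to 1499 bp the GC box occurred in 73.6%, close to the share in domains. There the CCAAT box occurred in 34.1%, the TATA box in 5.61%, the ETS motif in 6.81%, the E-box in 10.1% and the AP-1 motif in 3.62%. None of the 6 motifs contains another. Of the printed promoters, Twist1 held a TATA box, a CCAAT box and a GC box, Epcam a GC box and an E-box, and Ovol2 none of the 6. Starts on both strands lay within 1 kb of 160 of 690 domains with a listed start (23.2%), against 21.4% of regions of 1000 to 1499 bp and 15.2% of all other such regions. The share in domains was thus close to that of the next narrower class.

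A domain lay at the start, within 1 kb, of 912 of 21896 protein-coding genes (4.17%). An embryonic region of any width lay there for 13906 genes (63.5%), and of these 6.56% had a domain. Across 21 gene lists a domain lay at the start of 30 of 411 matched genes (7.30%). The highest shares were those of chromatin regulators, 6 of 24, and of RNA processing factors, 4 of 21, where all 10 domains were called in all 6 day 6 lists, against 63.3% of all domains at gene starts.

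Among TEC identity genes 2 of 17 had a domain at the start, and 15 of 17 had some embryonic region there. Epcam, an adhesion molecule of epithelial cells that serves to sort TEC, had a domain of 1650 bp (chr17:87635674-87637323). It was 95.6%, 96.7%, 95.6% and 99.6% covered in the E15 and E17 libraries, in which single peaks of 1577 to 1643 bp filled it. At day 6 peaks covered 22.0% and 13.9% of it in mTEC4, 25.9% and 32.0% in mTEC1, and 32.7% and 7.58% in mTEC2. All 6 day 6 libraries thus lay below the 4 embryonic ones. The rule chose domains by their embryonic width, so this is given as a description. Dll4, the Notch ligand through which TEC commit progenitors to the T lineage, had a domain of 1643 bp (chr2:119324377-119326019). It was 68.6% and 93.5% covered in E15 and 74.7% and 98.1% in E17. At day 6 it had no peak in either mTEC4 library and was 14.5% and 11% covered in mTEC1 and 29.2% and 5.42% in mTEC2. Ctsl, a lysosomal protease of cortical TEC, had a domain inside the gene that 2 day 6 lists called.

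Foxn1 and Trp63, the epithelial p63 factor, had no domain. Of 7 embryonic regions within 10 kb of Foxn1 the widest was 1207 bp (chr11:78373922-78375128), called in 3 day 6 lists, and of 12 at Trp63 the widest was 885 bp (chr16:25826126-25827010), called in 2. The region over the Foxn1 start was 897 bp wide and was called in no day 6 list.

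Among 22 epithelial genes 1, Ovol2, had a domain at its start, and Grhl1, a grainyhead factor of the epidermis, had 1 inside the gene that 5 day 6 lists called. Among medullary maturation genes it was Cd40, 1 of 13, the receptor through which T cells promote growth of the medulla. The Cd40 domain (chr2:165055226-165056764) was 29.2% and 91.0% covered in E15 and 61.3% and 74.1% in E17, and 5 day 6 libraries covered 5.52% to 26.4% of it while the first mTEC4 library had no peak. In the NF-kB list it was Rel, 1 of 15, which encodes a DNA-binding subunit. Rel (chr11:23770230-23771904) was 53.5% to 100% covered in the embryonic libraries. It was 43.4% to 48.9% covered in 5 day 6 libraries and 9.07% in the second mTEC2 library, so that Rel kept much of its open sequence in 5 of 6. Traf3, which restrains the noncanonical NF-kB pathway, had a domain inside the gene and no day 6 peak, and only the second E17 library covered it fully, against 15.1% to 23.8% in the other 3.

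The lists of signalling genes held few domains. In the Wnt list 2 of 20 genes had one, the Frizzled receptors Fzd2 and Fzd7, called in 5 and 6 day 6 lists. In the Notch list it was 1 of 14, Rbpj, the DNA-binding partner of cleaved Notch, with a domain of 2127 bp (chr5:53588960-53591086). Rbpj was 65.4% to 97.7% covered in the embryonic libraries and 19.2% to 49.6% at day 6. None of 21 genes of the BMP, TGF-beta and FGF list had a domain at the start, although 20 of the 21 had an embryonic region there. In the list of AP-1 and other immediate early genes, which cells switch on within minutes of a stimulus, 2 of 23 had one. Egr1 (chr18:34859807-34861856) was 70.2% to 89.7% covered in the embryonic libraries and 33.8% to 50.3% at day 6. Jun (chr4:95051497-95053447) was 72.0% to 81.7% covered in the embryonic libraries and 23.2% to 51.6% at day 6. Both were called in all 6 day 6 lists, and in each day 6 library they were covered over a larger share than Epcam or Dll4. Egr1 was placed by an end of the gene, since the promoter table used here has no start for it.

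Among 38 Hox genes none had a domain and 7 had any embryonic region at the start. None of 14 pharyngeal organogenesis genes had a domain, although 12 had an embryonic region at the start. Of 32 other developmental factors 3 had a domain at the start. Nfib, a nuclear factor I gene, had a domain of 1760 bp (chr4:82505231-82506990). It was 82.6% to 97.5% covered in the embryonic libraries. At day 6 the first mTEC2 library covered 94.8% and the second 4.49%, and the other 4 libraries covered 12.3% to 44.2%, so the 2 libraries of mTEC2 were the extremes. Pbx3, a homeodomain factor, was called in all 6 day 6 lists, and Tead1, the partner of the growth regulator Yap, in 4. Among interferon regulatory factors it was Irf2, 1 of 10, called in all 6.

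The 6 chromatin regulators were Chd4, Crebbp, Ep300, Ezh2, Kmt2d and Tet3. Chd4, the motor subunit of a nucleosome remodelling and deacetylase complex, had the widest of these domains, 2159 bp (chr6:125095450-125097608). It was 65.4% and 38.5% covered in E15 and 28.8% and 100% in E17, and 4.49% to 20.5% at day 6. Ep300 and Crebbp encode related histone acetyltransferases. The Ep300 domain (chr15:81584973-81586476) was 88.5% to 99.3% covered in the embryonic libraries. At day 6 Ep300 was 20% and 87.4% covered in mTEC4, 44.5% and 72.6% in mTEC1, and 40.2% and 5.65% in mTEC2, a spread within fractions as wide as that between them. Crebbp (chr16:4212893-4214714) was 51.2% to 72.4% covered in the embryonic libraries and 15.5% to 37.5% at day 6. Ezh2, the methyltransferase of the Polycomb repressive complex, was 55.1% to 97.5% covered in the embryonic libraries and 21.1% to 37.0% at day 6. Tet3, which oxidises methylated cytosine, had 1 domain at the start and another inside the gene, and all 6 day 6 lists called both.

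The 4 RNA processing genes were Hnrnpa2b1, Hnrnpk, Srsf2 and Srsf6, which encode RNA-binding and splicing proteins. The widest was at Hnrnpa2b1, 2301 bp (chr6:51468934-51471234), 59.2% to 92.4% covered in the embryonic libraries and 30.9% to 55.8% at day 6. Srsf2 (chr11:116852352-116854010) was 18.6% covered in the first mTEC4 library and 45.4% to 56.0% in the other 5 day 6 libraries. Lists for the general machinery of the cell had smaller shares: 1 of 35 ribosomal protein genes (Rpl7), 2 of 20 housekeeping genes (Eef1a1, Polr2a) and 1 of 20 cell cycle genes (Cdkn2c). Every one of the 35 ribosomal protein genes had some embryonic region at its start. Polr2a, the largest subunit of RNA polymerase II (chr11:69758099-69759643), was 92.0% to 100% covered in the embryonic libraries and 37.3% to 74.4% at day 6.

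Markers of other cells were looked for in the same way. None of 16 thymocyte genes, 12 macrophage and dendritic cell genes or 10 endothelial genes had a domain at the start, and 3, 3 and 5 of them had any embryonic region there. Lck, a kinase of T cells, and Pecam1, an adhesion molecule of endothelium, each had a domain inside the gene that 5 day 6 lists called. Among 14 mesenchyme genes 11 had an embryonic region at the start and 2 had a domain there. Twist1, a transcription factor of mesenchyme, had a domain of 1524 bp (chr12:33957072-33958595) that was 97.2% and 65.0% covered in E15 and 52.4% and 80.6% in E17, with no peak in any day 6 library. Fbn1, which encodes the matrix protein fibrillin, was 52.2% to 86.0% covered in the embryonic libraries (chr2:125505454-125507055). At day 6 Fbn1 had a peak in the second mTEC4 library alone, over 18.5%. Both mesenchyme domains thus had peaks in every embryonic library and were nearly or fully without peaks at day 6. The embryonic peaks were weak, with −log10 q of 1.37 to 2.29 at Twist1 and 2.11 to 3.88 at Fbn1. All lay under the limit of 5 used as an alternative, and the lowest value in any list was 1.0002. Whether other cells in the embryonic sorts had a part in this was not tested.

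**Figure D5:**
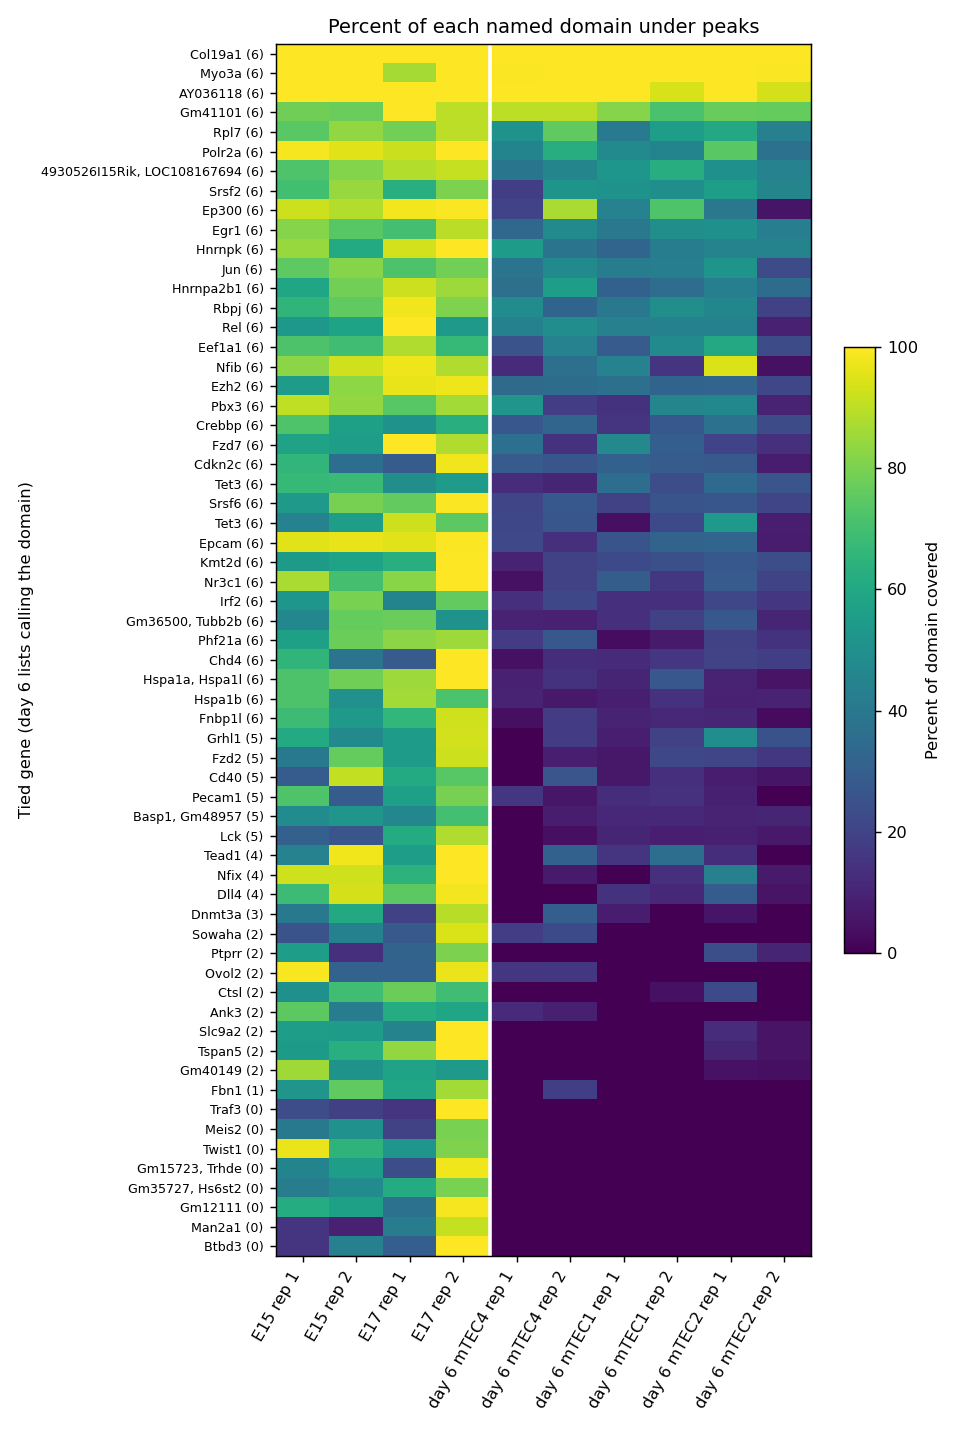
Percent of each of 62 named domains under peaks in each library (colour, 0 to 100%), with the tied gene and the number of day 6 lists that call the domain; the white line parts the 4 embryonic from the 6 day 6 libraries. Colours are brighter on the left of the line in most rows, the first 3 rows stay filled in every library, and the rows at the bottom, such as Twist1 and Btbd3, have no day 6 peak.

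The widest domains fell into 2 kinds. Some were filled almost completely in every library. The widest of all, 5776 bp (chr17:39843028-39848803), overlaps a ribosomal RNA pseudogene, Rn18s-rs5, and the noncoding gene AY036118, and 93.7% to 99.9% of it was covered in the 10 libraries. The second, 4588 bp (chr1:24611563-24616150), holds the pseudogenes Gm10222 and Gm10925 and was 99.7% to 100% covered. A domain inside Myo3a, 2796 bp (chr2:22587397-22590192), was 86.5% to 100% covered. With a domain at chr9:3023513-3025119, which has no gene within 100 kb, these were the 4 domains that every library covered over 75% or more. Their −log10 q over the 10 libraries was 149 to 462 in Myo3a and 118 to 349 in the second widest. It was 17.8 to 64.2 in the chromosome 9 domain and 6.79 to 43.4 in the widest. The next widest, at LOC108167694 (chr9:124422543-124425934, 3392 bp) and near Gm41101 (chr14:19415722-19418901, 3180 bp), were 38.7% to 62.2% and 71.4% to 90.2% covered at day 6. Whether reads in these domains can be placed uniquely was not tested. Without the 4 filled domains, 56.4% of the other 1022 were called in all 6 day 6 lists.

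The other wide domains lay mostly at promoters and were narrow at day 6. Basp1, which encodes a signalling protein of the inner cell membrane, had a domain of 2880 bp (chr15:25412188-25415067). It was 48.1% and 52.2% covered in E15 and 46.3% and 70.3% in E17. At day 6 it had no peak in the first mTEC4 library and 7.81% to 11.2% covered in the other 5. Hspa1b, an inducible heat shock chaperone, had a domain of 2817 bp (chr17:34957233-34960049) that was 50.4% to 86.2% covered in the embryonic libraries and 6.71% to 14.2% at day 6. The neighbouring domain at Hspa1a and Hspa1l (chr17:34970144-34972671) went from 72.0% to 100% in the embryonic libraries to 5.3% to 27.0% at day 6. The rule chose domains by their embryonic width, so the gap at both heat shock domains is given as a description. Hspa1a and Hspa1b are near-identical copies, and the sources used here do not say how reads were divided between them, so their separate values are uncertain. Phf21a, a reader protein of a histone demethylase complex (chr2:92183007-92185732), was 57% to 85.3% covered in the embryonic libraries and 3.34% to 27.1% at day 6. Fnbp1l, which acts on actin at membranes (chr3:122618503-122621116), was 53.7% to 92.7% and 2.98% to 17.7% covered. Tubb2b, a tubulin gene that shares its domain with Gm36500 (chr13:34130017-34132745), was 46.8% to 77.1% and 9.09% to 27.7% covered. Inside Nr3c1, the glucocorticoid receptor gene, a domain of 2839 bp (chr18:39488908-39491746) was 70.5% to 100% and 4.47% to 29.3% covered.

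The 29 domains without a day 6 peak held 12 gene starts, among them Twist1, Inhbb and Trhde. The widest was at Trhde, which encodes a peptidase that degrades thyrotropin-releasing hormone, with 2083 bp (chr10:114800417-114802499). Trhde was 45.0% and 55.9% covered in E15 and 24.2% and 98.0% in E17. The second lay inside Meis2, a homeodomain gene, with 1960 bp (chr2:116008823-116010782), and was 40.3% and 50.5% covered in E15 and 19.7% and 80.0% in E17. At both genes the second E17 library was the highest of the 4. Hs6st2, an enzyme of heparan sulphate synthesis (chrX:51679731-51681658), was 42.2% to 79.9% covered. The next 3 lay inside Gm12111, Man2a1, which encodes a Golgi mannosidase, and Btbd3. Man2a1 (chr17:64620136-64621851) was 9.09% to 42.0% covered in 3 embryonic libraries and 91.4% in the second E17 library. Btbd3 (chr2:138266844-138268550) was 15.1% to 43.5% covered in 3 and 100% in the second E17 library. Without that library, 98.9% of the remaining 565 domains were called in at least 1 day 6 list and 61.8% in all 6. Embryonic peaks at Trhde, Meis2, Hs6st2, Gm12111 and Man2a1 were weak, with a best −log10 q per library of 1.98 to 4.88. These lay under the alternative limit of 5, while Btbd3 had 3.07 to 9.10. Where no peak was called, the DNA may still have been accessible.

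At the width limit, the narrowest domains, of 1500 bp, lay inside Pcsk4, at Cyp4f17 and at the paired starts of Dok1 and Loxl3. They were called in 3, 3 and 4 day 6 lists. The widest regions left out, of 1499 bp, lay at Zbtb14, inside Schip1 and at Usp53 and were called in 6, 5 and 6.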

How the data were processed

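Open chromatin was profiled by ATAC-seq in 10 libraries, grouped by their titles. The submitters' processing notes name build mm10 and the tools cutadapt, Bowtie2, MACS2 and Picard. Their versions and settings, and whether read ends were shifted, are not given in the sources used here. Each library has its own deposited list of broad peaks, with replicates kept apart by the authors. The deposited score of a peak was not used. The deposited fold enrichment, a ratio to the caller's background within a library, was not used either. The deposited −log10 q, also the authors', ranked or filtered peaks within a list only, and it was never below 1.0002. Without read counts the depth of a library is unknown, and counting intervals cannot be given.

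Overlapping or touching peaks were merged, and a list called a region when any of its peaks overlapped it by 1 bp or more. Covered sequence is the share of a region's bases under peaks. Gene starts came from a RefSeq promoter table (27025 genes, 32851 starts, GRCm38.p6); for 7603 genes outside it, either end in the RefSeq gene table was used, with no strand. Domains were tied to genes with a start within 1 kb, else to the gene that holds them, else to the nearest within 100 kb. Named were the 12 widest domains, the 6 widest with no day 6 call and the 6 widest called in 1 fraction only. The 3 on each side of the width limit, Foxn1, Trp63 and listed genes with a domain were also named. So were the first 5, by name, of the genes with 2 domains, the most of any gene. Inhbb, the listed genes whose domain lies inside the gene, and the printed promoters were chosen after their values were seen. Of 412 listed symbols 411 matched, and a gene of the RNA processing list is not reported here. The members and lists were chosen with earlier results of these data known. Library values were compared by exact permutation, adjusted over 6 tests; with the same replicate numbers in each fraction, a fit with replicate as a block was an alternative. The code was tested on simulated data. Analyses used Python 3.11.15, numpy 2.4.6, pandas 2.3.3, scipy 1.17.1 and matplotlib 3.10.9.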

Additional observations from a re-analysis of the deposited data

How the results depend on the processing

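The number of domains followed from the rule's settings: 6455 at a minimum width of 1000 bp, 128 at 2000 bp, 2416 with peaks up to 500 bp apart merged, 38 with a single peak of 1500 bp in every embryonic list, 558 with peaks of −log10 q of at least 5, and 416 with every list shortened to the shortest. In the same order of settings, at least 1 day 6 list called 93.9%, 99.2%, 95.2%, 100%, 79.4% and 99.8% of the domains, and all 6 called 45.7%, 67.2%, 46.2%, 92.1%, 12% and 82.5%. Called by 50% coverage the shares were 20.6% and 0.975%, and by the central 200 bp 65.8% and 17.9%. The share at a gene start was 68.4% at 1000 bp, 72.4% with gaps merged, 73.7% with single peaks, 89.6% with the q limit, 90.4% with equal lists, 77.2% with the start inside the domain and 67.3% with the promoter table alone, the last chosen after seeing the data.

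Differences between a day 6 fraction and the others changed sign with single peaks for domains called in mTEC1 (-1.32 percentage points) and mTEC4 (0.658) and for sequence covered in mTEC2 (-3.53) and mTEC4 (1.17). The q limit turned mTEC2, called (-0.851) and covered (-0.116), and equal lists turned mTEC2, covered (-0.274). Leaving out 1 library at a time gave 565 to 932 domains, lowest without E17 replicate 2, with 94.8% to 98.9% called in at least 1 day 6 list, 55.3% to 63.3% in all 6 and 80.6% to 83.0% at a gene start. The differences then ran from -6.16 to 8.46 (mTEC1), -1.15 to 16.0 (mTEC2) and -16.7 to -0.439 (mTEC4) for domains called, and from -0.497 to 4.21, -6.13 to 7.75 and -6.87 to 2.16 for sequence covered. Over 120 fraction tests and alternatives the smallest adjusted p was 0.6 (exact permutation). With replicate number as a block the differences were the same as without it (1.15, 7.43 and -8.58 for domains called; 1.54, 0.811 and -2.35 for sequence covered), and the adjusted exact permutation p was 1 for each; the samples share only a number. None of these exact permutation tests could have reached 0.05. The smallest possible exact permutation p was 0.0667 with 6 libraries, and blocks or fewer libraries allow fewer arrangements. Unknown depth limits every missing call.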

Other observations

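The 19 genes tied to more than 1 domain each had 2. At Bach2, a repressor of lymphocyte differentiation, domains inside the gene of 1899 and 1762 bp were called in 6 and 5 day 6 lists. At Auts2, a neural chromatin factor, domains of 1792 and 1776 bp inside the gene were called in 5 and 2. Atp8a1, a lipid flippase gene, had a domain at its start that all 6 day 6 lists called and another inside the gene that only the 2 mTEC2 lists called, over 7.59% and 6.06% of its 1502 bp. Aff1, an elongation complex gene, had a domain inside the gene called in all 6 day 6 lists and another at a start called in 5. A domain of 2441 bp at 2700054A10Rik was 59.2% to 99.6% covered in the day 6 libraries.

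Neighbouring domains within 10 kb of each other formed 5 pairs, of which 1 lay at histone genes (H2ac19 and H3c15, and H2ac18 and H3c14), 1 at LOC100504180 and Duxf3, and 3 on an unplaced scaffold. A single peak of 1500 bp or more remained in at least 1 day 6 list in 22 domains and in all 6 lists in 4. At least 4 day 6 lists covered 50% or more of 37 domains, 24 of them at a gene start.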
